A study of Drosophila melanogaster with 44 samples.

Results

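Of the 17807 genes listed for each mRNA-seq library, 10 were followed here by name: arx, Panx, nxf2, ctp, mael, sov, egg, wde, Su(var)3-9 and G9a. These genes act in the Drosophila nucleus where piRNA-guided silencing meets methylation of histone H3 at lysine 9 (H3K9). All 10 were found in all 12 libraries, and all 10 passed the filter on low counts in every comparison. Their expected counts lay between 266 (arx) and 8712 (ctp) in a library.

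The libraries held poly(A)+ RNA of whole ovaries and of OSCs, somatic cells of the fly ovary grown as a line, which keeps Piwi-dependent silencing but contains no germ cells. Mod(mdg4) is a BTB-domain chromatin protein made in many splice variants, and the N variant is the form that was removed. The Mod(mdg4)-N mutant ovaries (3 libraries) came from females homozygous (RN1-2/1-2) for a CRISPR allele of Mod(mdg4) that shifts the reading frame in the exon particular to variant N, in the y1 w1118 background, and such females are sterile. The wild-type ovaries (3 libraries) came from the y1 w1118 strain, whose marker alleles both ovary groups carry. OSCs received siRNA against all variants (Mod(mdg4)-All KD, 2 libraries), against variant N (Mod(mdg4)-N KD, 2 libraries), or against EGFP as the control (EGFP KD, 2 libraries). Ages of the females were not given in the sources used here, and nothing states that replicates came from separate animals or cultures, so the p-values measure the spread between these samples, which may be technical.

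As background, Piwi carries piRNAs into the nucleus and finds nascent transposon transcripts by base pairing. Asterix (arx, the fly Gtsf1 homologue) binds Piwi, and a complex of Panoramix (Panx), nxf2, Nxt1 and the dynein light chain ctp turns target recognition into transcriptional silencing. The methyltransferase Eggless (egg, the fly SetDB1), with its cofactor Windei (wde), places H3K9 trimethylation at these targets. Maelstrom (mael) acts in the same pathway at or after this mark, and small ovary (sov), a zinc finger protein, is needed for heterochromatin and transposon silencing in the ovary. Su(var)3-9 methylates H3K9 in pericentric heterochromatin, and G9a methylates H3K9 mainly in euchromatin.

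For nxf2 and Su(var)3-9, sequence shared with another element or gene could bear on the read count, and it is printed for that reason. nxf2 (FBgn0036640) lies on 3L from 16576859 to 16580306, on the minus strand of dm6. Its exons share 630 bases (21.6% of its exon bases) with an annotated fragment of TART-A, a telomeric retrotransposon, on the same strand. Searched against the assembled chromosomes, the last coding exon matched 6 places outside nxf2 over a stretch of 228 bases at 96.5% identity, 2 on chromosome 4 and 4 at the start of the X assembly. Both places on chromosome 4 lie in annotated TART-A elements whose sense strand reads like the nxf2 mRNA. In all, 381 of 2523 nxf2 coding bases (15.1%) had a match, at identities of 92.9% to 96.5%. The coding part of the longest stretch (3L, 16577010 to 16577221, minus strand, 212 bases) is printed in the sense of the nxf2 mRNA, with the 8 bases in capitals that differ in the TART-A copy at 1323790 to 1324017 of chromosome 4. The longest run without a difference was 79 bases.
nxf2: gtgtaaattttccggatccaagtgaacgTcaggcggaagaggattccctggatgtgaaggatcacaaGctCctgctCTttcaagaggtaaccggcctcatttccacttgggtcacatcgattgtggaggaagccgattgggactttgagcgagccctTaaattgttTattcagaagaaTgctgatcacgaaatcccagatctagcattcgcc

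Su(var)3-9 (FBgn0263755; 3R, 15259864 to 15263458, minus strand) opens with exons that it shares with eIF2gamma, the gene of a translation initiation factor subunit. The shared exons hold 352 bases (14.8% of the exon bases of Su(var)3-9), of which 241 bases in 2 exons are coding. The last shared exon (15262547 to 15262721) joins the next exon of Su(var)3-9, whose coding part spans 15260234 to 15261897, or that of eIF2gamma, 15259450 to 15259686. The last 30 shared bases are printed in lower case and the first 30 bases of each gene's own exon in capitals.
Su(var)3-9: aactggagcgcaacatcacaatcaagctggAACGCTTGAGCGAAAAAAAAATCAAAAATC
eIF2gamma: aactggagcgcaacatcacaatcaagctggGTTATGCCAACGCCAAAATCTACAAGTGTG
RSEM divides read pairs that fit more than 1 transcript by estimate. The counts of Su(var)3-9 therefore depend on how pairs within the shared exons were divided. Whether pairs of TART-A origin were counted on nxf2 was not tested.

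Other overlaps were on the opposite strand or small. The exons of egg share 629 bases (16.0%) with asRNA:CR44067 and those of mael 246 bases (11.4%) with CG14451, both on the opposite strand. The listed settings name no strand option, so reads from these antisense partners cannot be told apart from those of egg and mael. ctp overlaps fragments of 2 transposons over 261 and 267 bases, and it has a paralogue, Cdlc2, whose 267 coding bases are 84.6% identical, with at most 26 bases in a run. Cdlc2 was listed at 0 in every library, and ctp is described with that limit. The exons of arx, wde and G9a overlap no other annotated exon.

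The groups were checked against their labels first. mod(mdg4) stood at 62.2 and 73.0 TPM (a transcript level corrected for length and library size) in Mod(mdg4)-All KD, against 478 and 448 TPM in EGFP KD (log2 fold change -2.47, SE 0.09, edgeR adjusted p = 0.00037). In Mod(mdg4)-N KD it stood at 434 and 403 TPM, and a gene total does not check the loss of a single variant, here or in ovary. In mutant ovaries it stood at 359, 520 and 625 TPM, against 528, 627 and 792 TPM in wild-type ovaries (adjusted p = 0.13, and 0.020 with the replicate block). Total counts lay between 13728168 and 20244538 per library, where a count of 3 is worth 0.148 to 0.219 CPM, a limit for counting error only. Germline markers (9 genes) summed to 2238 to 2283 TPM in mutant ovaries and 1780 to 1992 TPM in wild-type ovaries, and to 8.40 to 14.1 TPM in OSCs, where nos, osk, AGO3, zpg, otu and orb were under 1 TPM in every library. Follicle cell markers (tj, Fas3 and fs(1)Yb) summed to 177 to 215 TPM in OSCs, and haemocyte and fat body markers to under 1 TPM everywhere. In the ovary fit, 3 of the 9 germline markers passed the test: bam (log2 fold change 1.74) and zpg (0.46) were higher in the mutant and vas (-0.50) was lower. Late follicle cell markers (4 genes) summed to 15930 to 19369 TPM in mutant ovaries and 5178 to 12672 TPM in wild-type ovaries. Vm26Aa made up much of this sum, at 9704 to 18041 TPM in mutant and 5176 to 6111 TPM in wild-type ovaries. It was called higher (1.28), whereas Cp36 (0.26), Cp38 (0.003) and Femcoat (-0.58) were not called. Wild-type replicate 1 stood apart in lacking chorion RNA, with Cp36 at 1.07 TPM, against 1481 and 2646 TPM in the other wild-type libraries and 615 to 3436 TPM in mutant ovaries. Calls in ovary were therefore also counted without it. Without it, arx was again the only member called in ovary.

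Levels of the 10 genes in wild-type ovaries covered a wide range. ctp, a protein with many partners besides Panx, stood highest at 352 ± 29.3 TPM (SD, n = 3 in each ovary group). It was followed by arx at 74.1 ± 5.63 TPM, mael at 70.8 ± 10.6 TPM and G9a at 61.6 ± 5.41 TPM, and the gaps among these neighbours were smaller than the larger of their SDs. wde (32.1 ± 4.37 TPM), egg (30.6 ± 5.06 TPM) and Panx (27.3 ± 3.06 TPM) followed, and within this trio neighbours likewise did not differ beyond the spread. sov (22.0 ± 4.81 TPM), nxf2 (15.9 ± 2.83 TPM) and Su(var)3-9 (12.3 ± 2.13 TPM) were lowest, each apart from the next by more than the larger SD. In mutant ovaries arx no longer stood beside mael: it had 32.4 ± 7.09 TPM, next to wde at 34.0 ± 6.95 TPM.

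**Figure D1:**
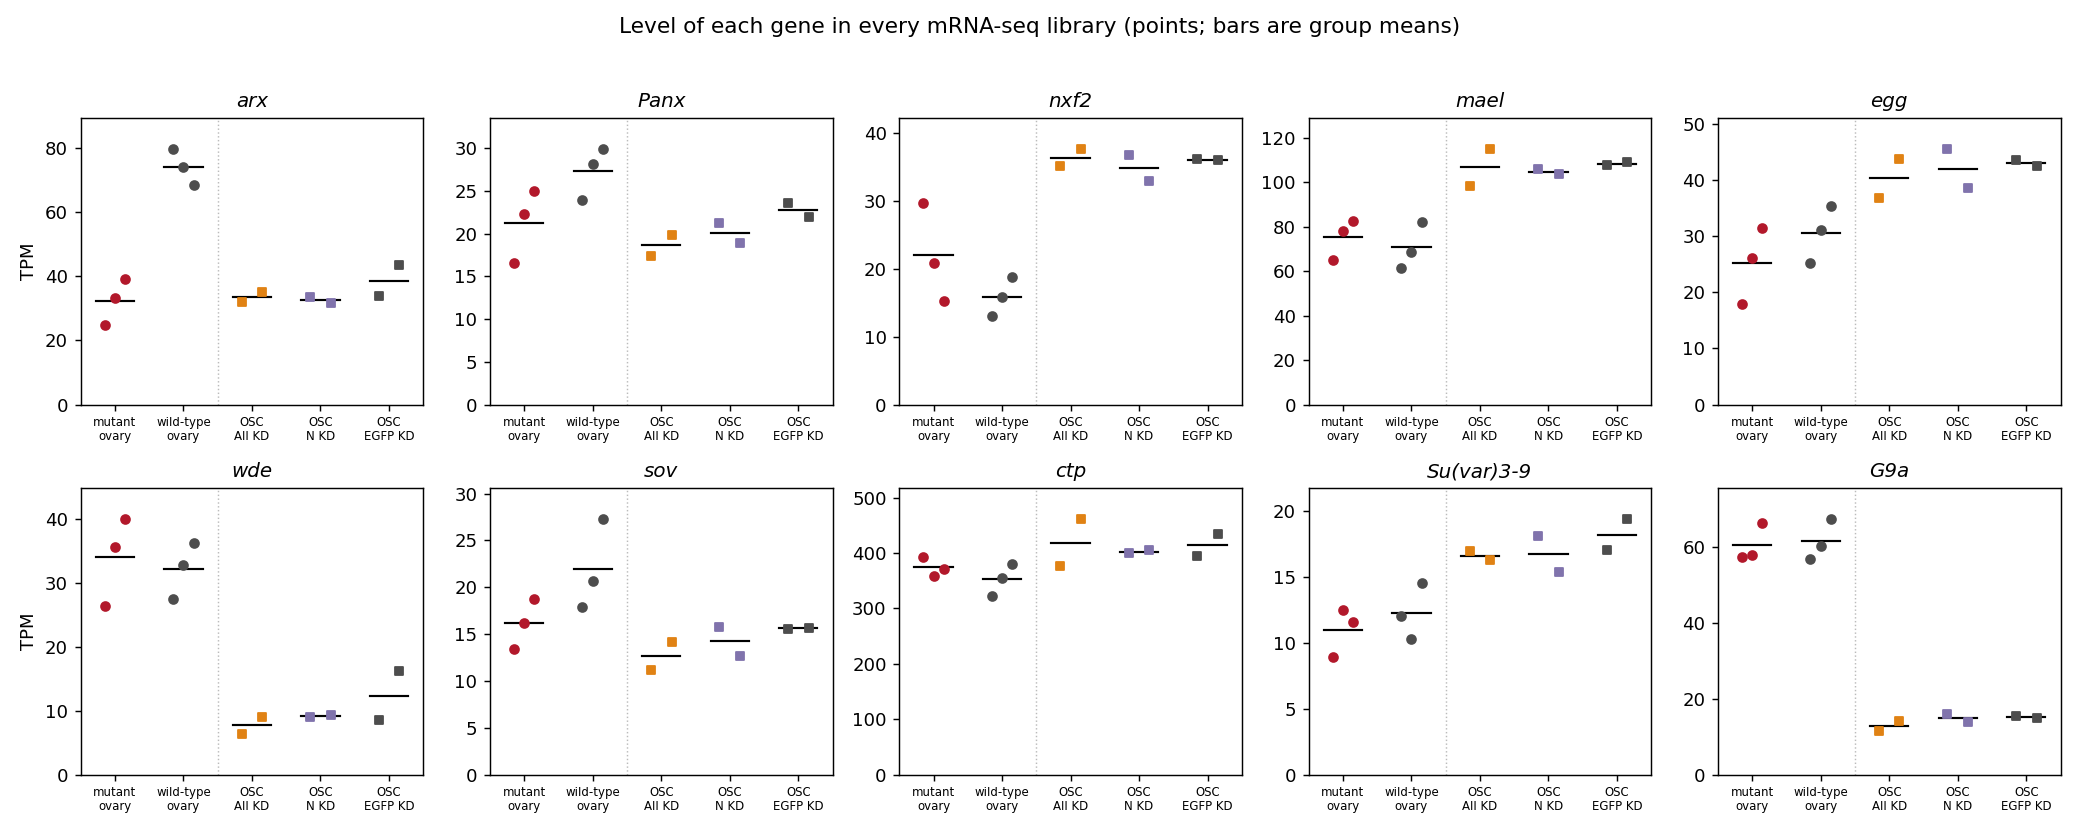
TPM of each of the 10 genes (vertical axis, from 0, its scale differing between panels) in every library (points) of the 5 groups, ovary left and OSC right of the dotted line, with the group mean as a bar. arx is at 25.0 to 39.1 TPM in the 3 mutant ovaries and 68.5 to 79.8 TPM in the 3 wild-type ovaries; wde and G9a are low and nxf2 and mael high in all OSC libraries.

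In ovary, the loss of variant N was compared with the wild type to ask whether the silencing genes themselves changed. A single member was called by edgeR without pairing, arx, which fell in the mutant. The other 9 members did not pass that test. limma-voom also called arx alone, and DESeq2 called Panx (adjusted p = 0.040) and sov (0.013) lower as well. Among all 7934 genes tested, DESeq2 called 1058 lower (13.3%). edgeR without pairing called 1438 of them (18.1%), of which 509 were called lower (6.42%) and 929 higher (11.7%). Without mutant replicate 2 or wild-type replicate 2, 173 or 177 genes were called, with arx among them each time. The median log2 fold change was -0.12 over the 10 members and -0.01 over all genes tested. In a whole organ, fewer cells of a type and less RNA per cell cannot be told apart.

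arx (FBgn0036826; 3L, 18900595 to 18901554, minus strand) encodes the small zinc finger protein that binds Piwi. Its level was 25.0, 33.1 and 39.1 TPM in mutant replicates 1 to 3, against 79.8, 74.1 and 68.5 TPM in wild-type replicates 1 to 3. The groups did not overlap, and the highest mutant library was below the lowest wild-type library. This is a log2 fold change of -1.24 (95% CI -1.59 to -0.90, SE 0.14, edgeR adjusted p = 0.0063), a level 0.423 times that of the wild type. In every alternative fitted, arx kept the call, with log2 fold changes of -1.32 to -1.14 and adjusted p of 2.6e-10 to 0.042. Without wild-type replicate 1 it was -1.16 (adjusted p = 0.019). Set against Panx within the same library, which takes out the scaling between libraries, arx had 1.52 ± 0.043 times the TPM of Panx in mutant ovaries and 2.75 ± 0.53 times in wild-type ovaries.

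Panx, sov and egg gave smaller negative values and did not pass edgeR's test without pairing, where DESeq2 called Panx and sov but not egg. Panx (FBgn0034617; 2R, 21310368 to 21312354), the scaffold of the silencing complex, stood at 16.5, 22.3 and 24.9 TPM in mutant ovaries, against 24.0, 28.1 and 29.9 TPM in wild-type ovaries. Its TPM overlapped between the groups, whereas the TMM-normalised CPM did not. Panx gave -0.40 on the log2 scale (SE 0.12, edgeR adjusted p = 0.067). sov (X, 6756322 to 6770712) stood at 13.5, 16.2 and 18.8 TPM in mutant ovaries, against 17.9, 20.6 and 27.3 TPM in wild-type ovaries. It too overlapped in TPM and not in normalised CPM, with -0.47 on the log2 scale (SE 0.15, adjusted p = 0.066). egg (FBgn0086908; 2R, 24775534 to 24779901) stood at 17.9, 26.2 and 31.5 TPM in mutant ovaries, against 25.3, 31.1 and 35.4 TPM in wild-type ovaries, and the groups overlapped on both scales (log2 fold change -0.32, SE 0.17, adjusted p = 0.20). Same-numbered ovary libraries deviated together across genes, and once that number entered the model as a block 3 more members passed: Panx (adjusted p = 0.030), sov (0.025) and egg (0.034). That fit called 4 of the 10 members lower, beside 1107 of 7934 genes (14%). In each of the 3 same-numbered pairs, the log2 difference in normalised CPM between mutant and wild type was negative for these genes, -0.49 to -0.36 for Panx, -0.63 to -0.38 for sov and -0.46 to -0.26 for egg. For Panx and sov, whose normalised CPM did not overlap, any other pairing would also have given negative differences.

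nxf2, the RNA-export-factor relative that pairs with Panx, varied widely among mutant libraries. It stood at 29.7, 20.9 and 15.3 TPM in mutant replicates 1 to 3, against 13.1, 15.8 and 18.8 TPM in wild-type replicates 1 to 3. Mutant replicates 1 and 2 lay above all wild-type libraries and mutant replicate 3 lay among them, so the groups overlapped. The log2 fold change was 0.47 (SE 0.29, 95% CI -0.23 to 1.17, adjusted p = 0.27). The ratio of nxf2 to Panx ranged from 0.615 to 1.80 in mutant ovaries and from 0.548 to 0.628 in wild-type ovaries. The same-numbered log2 differences were 1.22, 0.38 and -0.39.

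**Figure D2:**
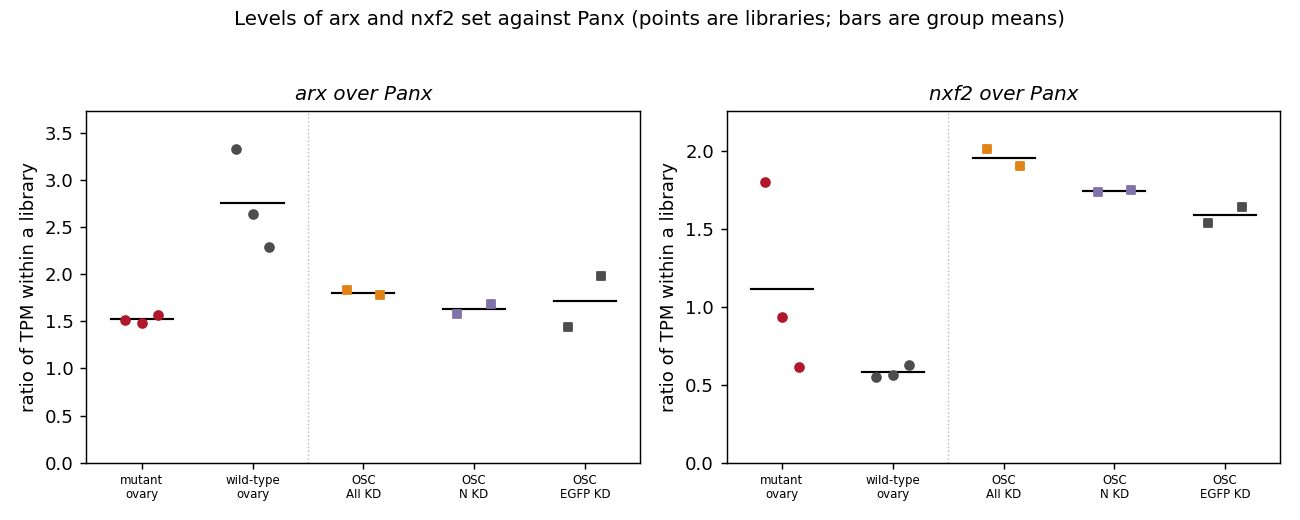
Ratio of the TPM of arx (left) and nxf2 (right) to the TPM of Panx within each library (points), with the group mean as a bar and the axis from 0. For arx the 3 mutant ovaries lie at 1.48 to 1.57 and the 3 wild-type ovaries at 2.29 to 3.33; for nxf2 the mutant ovaries spread from 0.615 to 1.80.

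The remaining members gave no call, without or with the block. mael (FBgn0016034; 3L, 22721203 to 22726234) had 75.4 ± 9.04 TPM in mutant ovaries and 70.8 ± 10.6 TPM in wild-type ovaries, with a log2 fold change of 0.06 (95% CI -0.19 to 0.31). wde (FBgn0027499; 2R, 10800420 to 10808938), the partner of egg, had 34.0 ± 6.95 and 32.1 ± 4.37 TPM in mutant and wild-type ovaries (95% CI of the log2 fold change -0.27 to 0.34). G9a (FBgn0040372; X, 245978 to 254650) had 60.6 ± 5.12 and 61.6 ± 5.41 TPM in mutant and wild-type ovaries (95% CI -0.24 to 0.13). For these 3 genes the intervals leave out a change of the size seen for arx. ctp (FBgn0011760; X, 4687800 to 4702034) stood at 393, 359 and 371 TPM in mutant ovaries, against 322, 355 and 380 TPM in wild-type ovaries, and the groups overlapped (log2 fold change 0.07, SE 0.11, adjusted p = 0.66).

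Su(var)3-9 stood at 8.95, 12.5 and 11.5 TPM in mutant ovaries, against 12.0, 10.3 and 14.5 TPM in wild-type ovaries. The groups overlapped, and the log2 fold change was -0.19 (SE 0.17, adjusted p = 0.42). eIF2gamma, which shares its first exons, stood at 424, 376 and 391 TPM in mutant ovaries, against 247, 225 and 247 TPM in wild-type ovaries, with no overlap (log2 fold change 0.70, SE 0.12, adjusted p = 0.014). The partner was thus the more abundant of the pair in every library and was the one that changed, and the part of shared reads in the value of Su(var)3-9 was not tested.

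**Figure D3:**
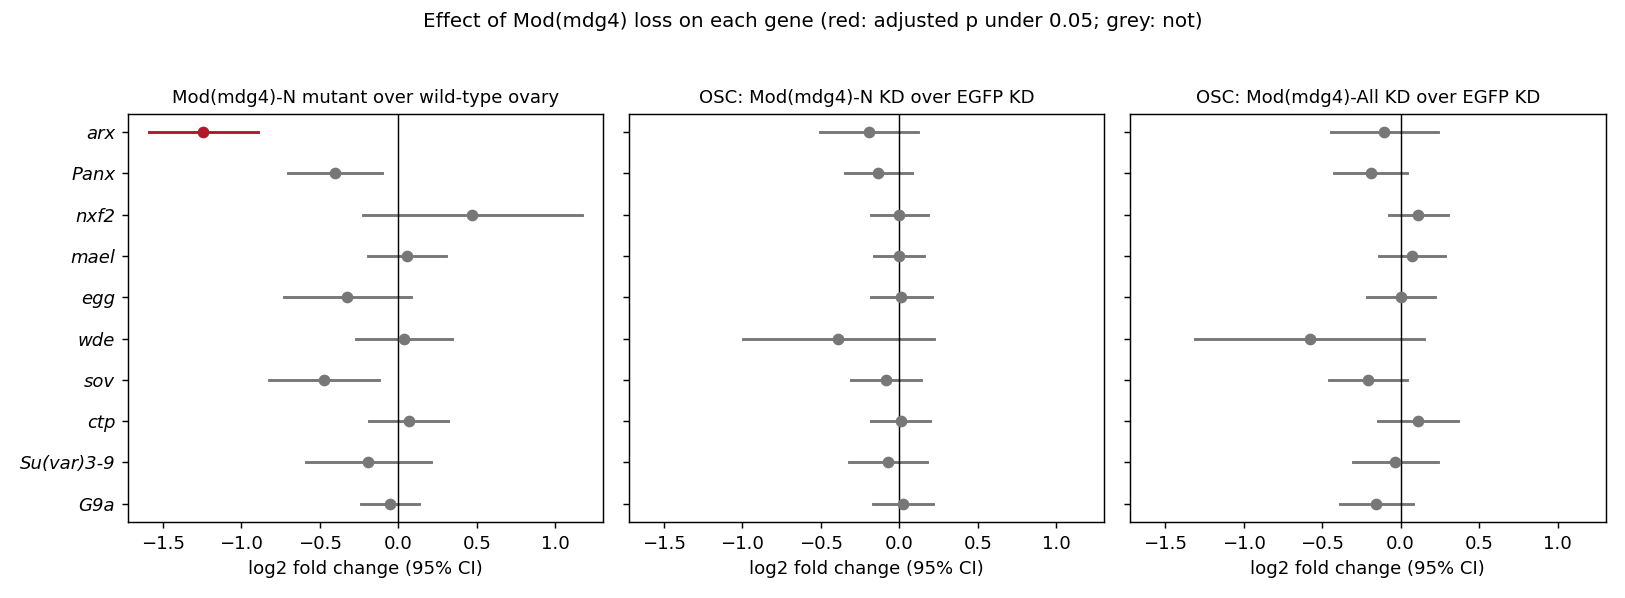
Log2 fold change (horizontal axis) of each gene, with its 95% confidence interval, for Mod(mdg4)-N mutant over wild-type ovary (left), Mod(mdg4)-N KD over EGFP KD (middle) and Mod(mdg4)-All KD over EGFP KD in OSC (right); red marks an adjusted p under 0.05. Only arx in ovary is red, at -1.24, and wde has the widest interval in both OSC comparisons.

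Genes that work beside the members were read from a pair of lists. Of 12 nuclear partners (Piwi, Nxt1, the SUMO pathway, the demethylase complex of Su(var)3-3 and CoREST, and the Mi-2 and MEP-1 remodeller), edgeR called 1 higher, 1 lower and 10 not, beside 11.7% of all genes called higher and 6.42% lower. The median log2 fold change of the partners was -0.21, against -0.01 over all genes tested. smt3, which encodes SUMO, was the gene called higher, at 661 ± 26.9 TPM in mutant ovaries and 507 ± 47.0 TPM in wild-type ovaries (log2 fold change 0.35, SE 0.08, adjusted p = 0.034). Mi-2, a nucleosome remodeller, was called lower, at 88.5 ± 15.0 TPM in mutant ovaries and 117 ± 8.79 TPM in wild-type ovaries (log2 fold change -0.44, SE 0.09, adjusted p = 0.025). Neither was called without wild-type replicate 1. piwi itself had 96.1 ± 1.52 TPM in mutant ovaries and 89.3 ± 6.15 TPM in wild-type ovaries and was not called. With the block, 1 partner was called higher and 4 lower, where 14.8% of all genes were called higher and 14% lower.

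Of 12 readers and demethylases of H3K9 methylation, edgeR called 2 lower and none higher, beside 6.42% of all genes called lower, and their median log2 fold change was -0.43. rhi, the germline HP1 homologue that marks piRNA clusters, stood at 6.72, 6.42 and 14.5 TPM in mutant ovaries, against 37.9, 33.8 and 35.6 TPM in wild-type ovaries. Its groups lay far apart (log2 fold change -2.01, SE 0.29, adjusted p = 0.010). Kdm4B, a histone lysine demethylase, was at 18.7 ± 4.75 TPM in mutant ovaries and 26.9 ± 5.38 TPM in wild-type ovaries (log2 fold change -0.57, SE 0.15, adjusted p = 0.045). Both were called without wild-type replicate 1 as well. With the block, 7 of the 12 were called lower, where 14% of all genes were, and DESeq2 called 5 of the 12 and 13.3% of all genes lower. vas, a germline helicase, was also called lower while bam was called higher in the mutant, and the part of cell composition in these values was not tested.

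In OSC, neither knockdown gave a call among the members. In Mod(mdg4)-N KD against EGFP KD, 2 of 8106 genes were called (0.0247%), and none of the 10 members was called by edgeR, DESeq2 or limma-voom. None had an unadjusted p under 0.05 in the edgeR fit, where 228 genes did (2.81%). In Mod(mdg4)-All KD against EGFP KD, 89 of 8126 genes were called (1.1%), and again none of the members was called by edgeR, DESeq2 or limma-voom or had an unadjusted p under 0.05, as 1048 genes did (12.9%). The comparison of Mod(mdg4)-All KD with Mod(mdg4)-N KD called 93 of 8118 genes (1.15%) and none of the members by any of these tools, nor at an unadjusted p under 0.05, where 931 genes passed (11.5%). These comparisons share libraries and are not independent of each other. No listed partner, reader or demethylase was called in these comparisons by edgeR, DESeq2 or limma-voom. At an unadjusted p under 0.05 in edgeR there were 0 of 12 partners and 0 of 12 readers and demethylases in Mod(mdg4)-N KD, and 2 of each (Nxt1 and CoREST, HP1b and HP4) in both comparisons of Mod(mdg4)-All KD.

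arx, the gene that fell in ovary, stood at 31.9 and 35.2 TPM in Mod(mdg4)-All KD, at 33.6 and 31.8 TPM in Mod(mdg4)-N KD and at 33.9 and 43.5 TPM in EGFP KD. The knockdown values lay near the lower control library. Mod(mdg4)-N KD over EGFP KD gave a log2 fold change of -0.19 (95% CI -0.51 to 0.12), and for Mod(mdg4)-All KD over EGFP KD it was -0.10 (95% CI -0.44 to 0.24). Both intervals leave out the change of -1.24 measured in ovary. Panx stood at 17.4 and 19.8 TPM in Mod(mdg4)-All KD, at 21.2 and 18.9 TPM in Mod(mdg4)-N KD and at 23.5 and 22.0 TPM in EGFP KD. Its log2 fold changes were -0.19 (95% CI -0.43 to 0.04) in Mod(mdg4)-All KD and -0.13 (95% CI -0.35 to 0.08) in Mod(mdg4)-N KD, neither of which passed the test. All knockdown libraries lay below both control libraries, but the share of all genes that did so was not counted, so nothing is read from this.

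wde was the member least well determined in OSC. It stood at 6.39 and 9.07 TPM in Mod(mdg4)-All KD, at 8.99 and 9.30 TPM in Mod(mdg4)-N KD and at 8.50 and 16.2 TPM in EGFP KD. EGFP KD replicate 2 lay apart from the other 5 OSC libraries and replicate 1 among them. Its log2 fold change was -0.58 in Mod(mdg4)-All KD (SE 0.30, adjusted p = 0.50) and -0.39 in Mod(mdg4)-N KD (SE 0.26, adjusted p = 1.00). Without EGFP KD replicate 1, the value for Mod(mdg4)-N KD was -0.79 and was called (adjusted p = 0.011), and without EGFP KD replicate 2 it was 0.16 (adjusted p = 0.999). For Mod(mdg4)-All KD these values were -0.98 and -0.04, neither of them called. The value thus followed which control library was kept.

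None of the other members passed the test in OSC. In Mod(mdg4)-All KD, sov stood at 11.2 and 14.2 TPM, against 15.6 and 15.7 TPM in EGFP KD (log2 fold change -0.21), and G9a at 11.5 and 14.1 TPM, against 15.4 and 14.9 TPM in EGFP KD (-0.15). Both knockdown libraries lay below both control libraries for each of these genes, on TPM and on normalised CPM. On a single scale, nxf2 lay above (normalised CPM) and Su(var)3-9 below (TPM) in Mod(mdg4)-All KD. In Mod(mdg4)-N KD, arx and mael lay below on TPM alone. The share of all genes separated in this way was not counted, so nothing is read from these separations. The 95% intervals for Mod(mdg4)-N KD over EGFP KD were -0.18 to 0.18 for nxf2, -0.16 to 0.16 for mael, -0.18 to 0.21 for egg, -0.31 to 0.14 for sov, -0.18 to 0.19 for ctp, -0.32 to 0.17 for Su(var)3-9 and -0.17 to 0.22 for G9a, all on the log2 scale. For Mod(mdg4)-All KD they were -0.07 to 0.30 for nxf2, -0.14 to 0.29 for mael, -0.22 to 0.22 for egg, -0.45 to 0.04 for sov, -0.14 to 0.37 for ctp, -0.30 to 0.24 for Su(var)3-9 and -0.39 to 0.08 for G9a. No interval reached a change of 1 on the log2 scale in either direction. ctp stood at 376 and 462 TPM in Mod(mdg4)-All KD, at 400 and 405 TPM in Mod(mdg4)-N KD and at 395 and 434 TPM in EGFP KD. Su(var)3-9 stood at 16.9 and 16.3 TPM in Mod(mdg4)-All KD, at 18.1 and 15.3 TPM in Mod(mdg4)-N KD and at 17.0 and 19.4 TPM in EGFP KD, while eIF2gamma had 276 to 325 TPM over these libraries.

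Whether the effect of variant N loss differed between ovary and OSC was tested as an interaction over 10 libraries. Of 9011 genes, 298 were called (3.31%), and of the members arx alone was called. Its difference of log2 fold changes, ovary minus OSC, was -1.06 (SE 0.22, 95% CI -1.55 to -0.56, adjusted p = 0.039). The call was lost on log2(TPM + 1) (adjusted p = 0.054), with a replicate block in both tissues (0.056), and without any of 7 of the 10 libraries in turn, where the adjusted p was 0.060 to 0.18. The mutation and the knockdown differ also in tissue and in how the variant was removed, and these cannot be told apart. For the other members the difference did not pass the test, with values of -0.40 for sov, -0.35 for egg, -0.28 for Panx, 0.41 for wde and 0.45 for nxf2, and -0.13 to 0.05 for the rest. Of the listed genes, edgeR called none here, with 3 of 12 partners and 3 of 12 readers and demethylases at an unadjusted p under 0.05. The share of all genes at that unadjusted level was not counted, so nothing is read from these counts. DESeq2 called 3 (smt3, Mi-2 and rhi), limma-voom 0, and edgeR with the block 2 (Su(var)3-7 and Kdm4B). Among all 9011 genes, DESeq2 called 867 and edgeR with the block 676.

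Wild-type ovaries, which hold germ cells and somatic cells, were then set against control OSCs, which are somatic. Of the members, 3 were higher in ovary (arx, wde and G9a), 5 were lower (nxf2, mael, egg, ctp and Su(var)3-9) and 2 did not pass the test (Panx and sov). Over all genes, 3084 of 8685 (35.5%) were called higher and 2889 (33.3%) lower, 68.8% in all, so the share of members called was near that of genes in general. The median was -0.13 over the members and 0.02 over all genes tested. These groups differ in strain, culture and cell types as well as in library, and these cannot be told apart.

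The H3K9 methyltransferases went separate ways. G9a stood at 56.9, 60.3 and 67.5 TPM in wild-type ovaries, against 15.4 and 14.9 TPM in EGFP KD (log2 fold change 1.83, SE 0.08, adjusted p = 3.4e-05). egg stood at 25.3, 31.1 and 35.4 TPM in wild-type ovaries, against 43.6 and 42.5 TPM in EGFP KD (log2 fold change -0.63, SE 0.12, adjusted p = 0.0057). All ovary libraries were above the OSC libraries for G9a and below them for egg. This was not particular to them: no member overlapped in TPM between wild-type ovaries and EGFP KD, the uncalled Panx and sov included. The share of all genes without overlap was not counted, so nothing is read from the lack of overlap. Su(var)3-9 had 12.0, 10.3 and 14.5 TPM in wild-type ovaries, against 17.0 and 19.4 TPM in EGFP KD (log2 fold change -0.71, SE 0.16, adjusted p = 0.0096), and was not called without EGFP KD replicate 2 (adjusted p = 0.054). Within a library, G9a had 2.03 ± 0.19 times the TPM of egg in wild-type ovaries (n = 3) and 0.351 ± 0.0018 times in EGFP KD (n = 2).

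wde, the cofactor of egg, did not follow egg. It stood at 27.5, 32.7 and 36.2 TPM in wild-type ovaries, against 8.50 and 16.2 TPM in EGFP KD (log2 fold change 1.23, SE 0.29, adjusted p = 0.011). Leaving out EGFP KD replicate 1 or 2 gave 0.74 (adjusted p = 0.022) or 1.69 (adjusted p = 0.0036), so the size depended on that library and the call did not. Within a library, wde had 1.05 ± 0.033 times the TPM of egg in wild-type ovaries (n = 3) and 0.195 and 0.380 times in the EGFP KD libraries.

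Among the piRNA effectors, arx stood at 79.8, 74.1 and 68.5 TPM in wild-type ovaries, against 33.9 and 43.5 TPM in EGFP KD (log2 fold change 0.82, SE 0.16, adjusted p = 0.0053). Without EGFP KD replicate 1 it was 0.57 and was not called (adjusted p = 0.056). nxf2 ran the other way, at 13.1, 15.8 and 18.8 TPM in wild-type ovaries, against 36.2 and 36.0 TPM in EGFP KD (log2 fold change -1.33, SE 0.13, adjusted p = 0.00051). mael stood at 61.5, 68.6 and 82.4 TPM in wild-type ovaries, against 108 and 109 TPM in EGFP KD (log2 fold change -0.75, SE 0.11, adjusted p = 0.0020). ctp stood at 322, 355 and 380 TPM in wild-type ovaries, against 395 and 434 TPM in EGFP KD (log2 fold change -0.38, SE 0.09, adjusted p = 0.011). Its call was lost without wild-type replicate 2 (adjusted p = 0.053) and on log2(TPM + 1) (adjusted p = 0.072), a scale on which the median of all genes moved to 0.14. Panx, the scaffold of the complex with nxf2 and ctp, had 27.3 ± 3.06 TPM in wild-type ovaries (n = 3) and 22.8 ± 1.09 TPM in EGFP KD (n = 2), with a 95% CI of the log2 fold change of -0.14 to 0.40. sov had 22.0 ± 4.81 TPM in wild-type ovaries (n = 3) and 15.6 ± 0.071 TPM in EGFP KD (n = 2), and its log2 fold change of 0.34 (adjusted p = 0.098, SE 0.16) was called without wild-type replicate 1, at 0.44 (adjusted p = 0.030).

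**Figure D4:**
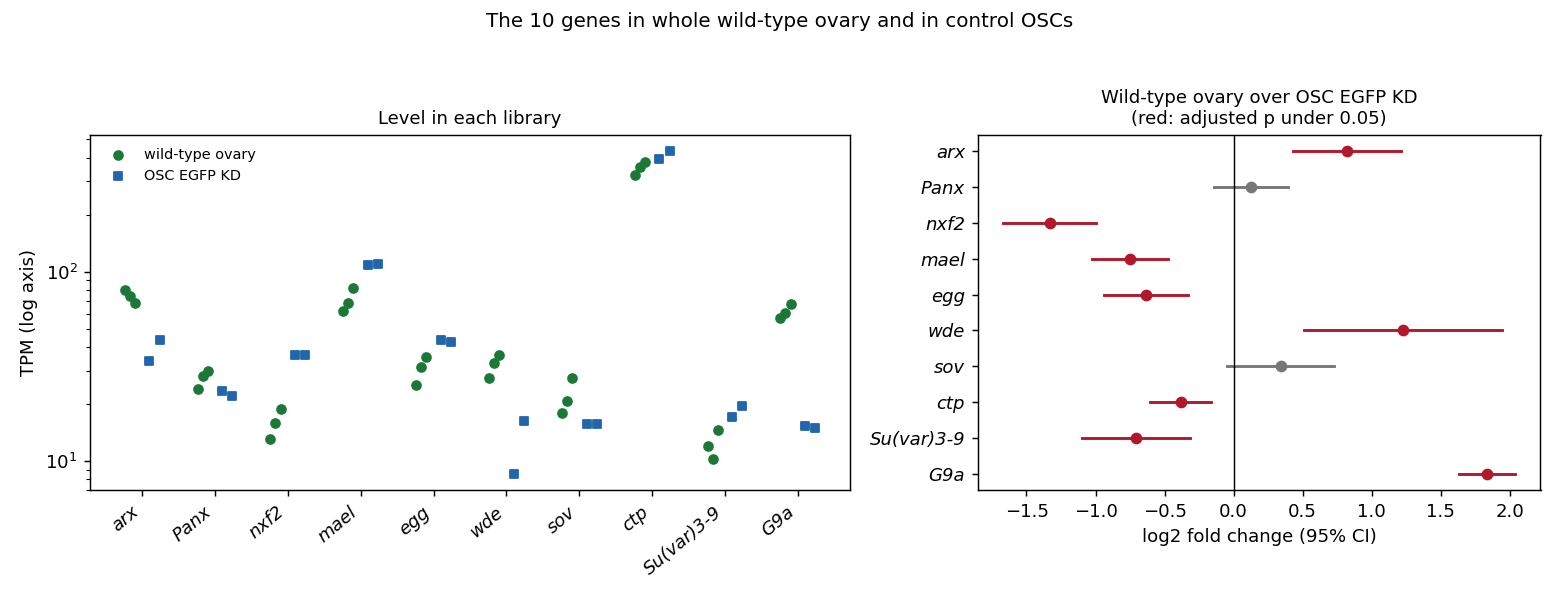
Left, TPM of each gene (log axis) in the 3 wild-type ovary libraries (green circles) and the 2 OSC EGFP KD libraries (blue squares). Right, the log2 fold change of wild-type ovary over OSC EGFP KD with its 95% confidence interval, red where the adjusted p was under 0.05: G9a, wde and arx lie right of 0, and nxf2, mael, Su(var)3-9, egg and ctp lie left of it.

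In EGFP KD cells the order of the levels began with ctp (415 ± 28.2 TPM) and mael (108 ± 0.66 TPM), and ended with wde (12.3 ± 5.42 TPM, n = 2 for each). Among egg, arx and nxf2, at 43.0 ± 0.75, 38.7 ± 6.84 and 36.1 ± 0.13 TPM, neighbours did not differ beyond the larger SD, nor did G9a (15.1 ± 0.34 TPM) and wde. The order was close to this in both knockdowns, where ctp and mael were highest and wde lowest as well.

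Of the 12 nuclear partners, edgeR called 2 higher in wild-type ovary, 7 lower and 3 not, beside 35.5% of all genes called higher and 33.3% lower. DESeq2 called 11 of them, adding Aos1 and Uba2, beside 6335 of all 8685 genes. limma-voom called 9, beside 5935 of all genes. piwi had 89.3 ± 6.15 TPM in wild-type ovaries and 502 ± 66.6 TPM in EGFP KD (log2 fold change -2.63, adjusted p = 4.4e-05). The SUMO gene smt3 (-1.20) and lwr, the SUMO-conjugating enzyme (-0.96), were lower as well, and Su(var)2-10, the SUMO ligase that links Piwi to egg, was higher (0.98). MEP-1 (-0.55) and the deacetylase Rpd3 (-0.73) were lower. The adjusted p of these 5 genes was at most 0.0059. Of the 12 readers and demethylases, 3 were called higher, 5 lower and 4 not, and DESeq2 and limma-voom called 8 as well. Over both lists, the share called by edgeR was near the 68.8% of genes in general. rhi had 35.8 ± 2.04 TPM in wild-type ovaries and 1.09 ± 0.17 TPM in EGFP KD (log2 fold change 4.90, adjusted p = 1.7e-05). Kdm4A (1.48) and Su(var)3-7 (1.30) were higher, and Kdm3 (-1.13), HP1b (-0.73) and the gene of HP1a (-0.66) were lower, each with an adjusted p of at most 0.0031.

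For the members whose group means of log2(TPM + 1) spanned more than 1, the gene with the most similar pattern over the 5 groups was sought among 7197 genes tested in both tissues. Likeness was the root mean square difference of the centred group means, as a description over 5 points. For arx it was CG4594 (0.087), at 16.1 TPM in mutant and 40.8 TPM in wild-type ovaries and 18.0 to 18.6 TPM in OSC groups. For nxf2 it was CR14117 (0.016), for wde CG33199 (0.049) and for G9a mei-P26 (0.022), a germline TRIM-NHL protein gene. mei-P26 averaged 58.3 TPM in mutant ovaries, 58.2 TPM in wild-type ovaries and 11.9 to 14.5 TPM in OSC groups. The group means of the other 6 members spanned 0.24 to 0.79.

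Windows of 250 bases before to 50 bases after the annotated gene start were searched for 3 motifs on both strands. TATCGAT, the core of the DNA replication-related element, was in 4 of the 10 members (arx, Panx, sov and Su(var)3-9) and in 18.1% of 13920 windows of protein-coding genes. CAGCTG, an E-box, was in 3 members (arx, Panx and ctp) and in 17.6% of windows, and GAGAG was in 1 member (mael) and in 29.7% of windows. arx and Panx held both of the first 2 motifs. A match describes the letters and not a site that is used.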

How the data were processed

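Poly(A)+ RNA was sequenced in 12 of the 44 samples of the series; the others were not analysed here. The authors mapped reads to dm6 with RSEM and STAR (versions and annotation release are not given in the sources used here) and deposited a table per library. It holds expected counts, left by the authors without normalization, and TPM, which the authors' RSEM run scaled for gene length and library. Of nonzero expected counts, 15.7% were not whole, and all were rounded. For differential expression the authors used limma and edgeR.

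Symbols came from Ensembl release 115, which paired 17710 identifiers directly, 56 through their transcripts (sov among them, listed under the older identifier FBgn0286831) and left 41 unpaired. smt3, CoREST, Rpd3 and nos are listed there as Sumo, CoRest, HDAC1 and nanos. Genes above 1 CPM in at least 3 (ovary) or 2 (other fits) libraries were tested with edgeR 4.0.16 in R 4.3.3 (TMM, quasi-likelihood F test, legacy form, only the groups compared, Benjamini-Hochberg over all genes tested, threshold 0.05). The SE is the log2 fold change over the square root of F. The main edgeR fit was tested on counts simulated under the model it assumes, for every comparison except the interaction. The alternative fits were not tested in this way. Sequences came from the RefSeq copy of Release 6 and were searched with BLAST 2.17.0.

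Chi-square per degree of freedom between libraries of a group was 6.91 to 87.4, so none was a copy. Same-numbered ovary libraries correlated in their deviations from the group means (r = 0.21, 0.34 and 0.27 across genes), so the blocked value is given where it changes a call. The pairing comes from this check alone.

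As alternatives, each comparison was refitted with limma-voom (limma 3.58.1), DESeq2 1.42.0, RLE size factors, the newer form of edgeR, filterByExpr or no filter, limma on log2(TPM + 1), the replicate block, the OSC groups together, a replicate left out, or ctp summed with Cdlc2. Cdlc2 was 0 in every library, so its sum with ctp could not change a value. Members were named with all their values. Genes of the lists were named where called, at most 6 per list and comparison by the smallest adjusted p, and where called by another tool or unadjusted. piwi in ovary was named outside this rule, after its values were seen. The members and lists were chosen with earlier results of these data known.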

Additional observations from a re-analysis of the deposited data

Results flagged for a closer look

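The effect of losing variant N on arx differed between ovary and OSC in the test of the difference itself. The log2 fold change was -1.24 for Mod(mdg4)-N mutant over wild-type ovary and -0.19 for Mod(mdg4)-N KD over EGFP KD, a difference of -1.06 (SE 0.22, edgeR adjusted p = 0.039). arx was lower in 3 of 3 mutant ovary libraries than in any wild-type ovary library. The call was lost in 9 of 19 alternatives, among them log2(TPM + 1) and the replicate block in both tissues. These settings are given with the result above. With the block in the ovary libraries only, chosen after seeing the data, the call was kept (edgeR adjusted p = 0.035).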

How the results depend on the processing

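Over 60 member results and 856 refits, 836 kept the side of the threshold and, where called, the direction. Of the rest, 13 lost the call and 7 gained it, and no called value changed sign. Most refits were of members not called in the main fit, so the 836 says little about how firm the calls are. They include the sum of ctp with Cdlc2, which could not change a call. Of the lost calls, 9 were of arx in the interaction (19 refits) and 4 fell in wild-type ovary against EGFP KD. Members called in ovary were 3 with DESeq2 (arx, Panx and sov) and 4 with the replicate block, and 1 with each replicate left out. In the interaction, members called were 0 on log2(TPM + 1) and with the replicate block in both tissues, and 0 to 1 with each replicate left out. In Mod(mdg4)-N KD they were 0 to 1 with each replicate left out.

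Counts over all genes moved more. In ovary, 2365 genes were called by DESeq2 and 2279 with the replicate block, and 173 to 1446 with each replicate left out (816 or 811 without wild-type replicate 3 or mutant replicate 1). In Mod(mdg4)-N KD, the count was 7 by DESeq2, 1 by limma-voom, 26 without a filter, 14 with the replicate block, 0 with all OSC groups in a single fit, and 3 to 45 with each replicate left out (45 without EGFP KD replicate 1). In Mod(mdg4)-All KD, it was 230 by DESeq2, 188 without a filter, 144 on log2(TPM + 1), 166 with the replicate block, 178 in a single fit, and 20 to 293 with each replicate left out (20 and 23 without an EGFP KD library, 270 and 293 without a Mod(mdg4)-All KD library). Between the knockdowns, it was 214 by DESeq2, 505 without a filter, 28 with the replicate block, and 12 to 568 with each replicate left out (12 and 16 without a Mod(mdg4)-N KD library, 315 and 568 without a Mod(mdg4)-All KD library). In the interaction, it was 867 by DESeq2, 772 on log2(TPM + 1), 676 with the replicate block, 1015 with the block in ovary only (added after seeing the data), and 19 to 432 with each replicate left out (19 to 65 without an OSC library, 131 or 134 without wild-type or mutant replicate 2). The cause was not tested.

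Same-numbered OSC libraries correlated at 0.19 (Mod(mdg4)-N KD and EGFP KD), 0.15 (Mod(mdg4)-All KD and EGFP KD) and -0.15 (both knockdowns); with 2 pairs these share only a number. A block with crossed numbers, added after seeing the data, called 257 genes between the knockdowns and 0 members. The block changed no other member call. No paired fit was made of wild-type ovary against EGFP KD, where numbers do not match samples.

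With 2 libraries per OSC group, and a lone library assumed to vary like the others when its partner was left out, changes of the size of the intervals printed for OSC were not detectable. Gene totals do not separate splice variants. Reads shared by nxf2 and TART-A, or by Su(var)3-9 and eIF2gamma, cannot be reassigned from these tables.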
